A study of Mus musculus with 20 samples.

Results

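A set of 7 genes whose transcripts are read as signs of a heart under load were followed across every heart of the study: Nppa, Nppb, Myh6, Myh7, Acta1, Ankrd1 and Rcan1. All array probes named for these 7 genes were taken, and probes of one gene were kept apart. This gave 12 probes of 41174 on the array, and all 12 were among the 20839 probes tested. Of these, 10 carry the gene's own symbol in the files. The other 2 are listed under Dscr1, an older name of Rcan1, and were matched through their transcript accession. Acta1 and Ankrd1 have 1 probe each and the other genes have 2, numbered here by brightness in the heart channel, with probe 1 the brighter.

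A loaded or failing heart turns on genes that are active before birth, which is called the fetal gene program. It includes the natriuretic peptides ANP (from Nppa) and BNP (from Nppb), hormones that the heart muscle releases when stretched, and skeletal alpha-actin (Acta1). In the mouse ventricle the fast alpha myosin heavy chain (Myh6) replaces the slow beta chain (Myh7) around birth, and a return of Myh7 relative to Myh6 is a classic sign of pathological growth. Ankrd1 encodes CARP, a stretch-induced protein that binds titin, and Rcan1 encodes an inhibitor of the phosphatase calcineurin that is itself a calcineurin target.

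The arrays compared mice lacking MuRF1 (MuRF1 -/-), a muscle ubiquitin ligase encoded by Trim63, with mice that have it (MuRF1 +/+). In each genotype 3 hearts came from mice on chow, 4 from mice given 0.05% (w/w) fenofibrate in chow for 3 weeks and 3 from mice given it for 8 weeks. Fenofibrate activates the nuclear receptor PPAR alpha, and the study asks how MuRF1 bears on the heart growth seen with this drug. All chow hearts carry the label of 8 weeks. No chow group matches 3 weeks in duration, and within a genotype both fenofibrate groups are set against the same chow hearts. The series text calls the groups strain-matched and the mice 3 to 8 weeks old. The labels used here give neither strain nor sex for the hearts and do not say how MuRF1 was deleted.

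Each of the 20 arrays held RNA of 1 heart, labelled with Cy5, against pooled RNA of entire newborn C57BL/6 mice at day 1, labelled with Cy3. A level below is the log2 ratio of heart over this pool. A level of 0 thus means equal signal with newborn whole-body RNA, which itself holds skeletal muscle and newborn heart, and levels of different probes cannot be set against each other. Changes are differences of such levels between groups, with SE, from 1 limma model over all 20 hearts. A call means a Benjamini-Hochberg adjusted p under 0.05 over all 20839 probes.

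Trim63 was 10.1-fold lower in MuRF1 -/- hearts averaged over the diets on 1 probe, at -1.19 to -0.49 in MuRF1 -/- and 0.79 to 2.85 in MuRF1 +/+ hearts, and 1.56-fold lower on its other probe, both without overlap. Of 7 ventricular muscle markers, Ryr2 was above background on 18 of 20 arrays and the others on all 20. Their mean, over the 3 that could be averaged, was 1.56 to 1.75 in MuRF1 +/+ hearts at 8 weeks, against 2.08 to 2.36 on chow. That mean does not stand for the list. At 8 weeks Actc1 (0.44 against 2.08 on chow), Ryr2 (0.34 against 0.91) and Myl3 (3.32 against 3.45) averaged lower. Mb, Myl2, Tnni3 and Tnnt2 averaged higher, and the median difference of the 7 was 0.44. Actc1 was the 1 of 7 called, where 13.4% of all tested probes were. The part of these markers in the results below was not tested. The Y-linked transcripts Ddx3y and Eif2s3y both passed background in every chow heart and in 2 of 3 MuRF1 -/- hearts at 8 weeks. They did so in 0 hearts at 3 weeks in either genotype and in 0 of 3 MuRF1 +/+ hearts at 8 weeks. The X-linked Xist read -4.13 to -3.49, -0.20 to 0.20 and -4.05 to -2.72 in MuRF1 -/- hearts on chow, at 3 weeks and at 8 weeks, and -4.24 to -3.87, -0.50 to 0.00 and -2.70 to -0.90 in MuRF1 +/+ hearts. These sex-linked transcripts thus moved with the diet groups, including 8 against 3 weeks, and their part in the differences below was not tested. Arrays MuRF1 -/- 3-week replicate 4 and MuRF1 +/+ 8-week replicate 2 stood apart from the rest, and had the lowest shares of probes above background in the heart channel (34.3% and 34.0%, against 36.9% to 51.9% on the others).

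Both of the classic pairs are genomic neighbours. On RefSeq's GRCm38.p6 assembly Nppb and Nppa lie on chromosome 4 with 13516 bases between them, and Myh6 and Myh7 on chromosome 14 with 2666 bases between them. Each myosin gene also carries a microRNA in its body, miR-208a in Myh6 and miR-208b in Myh7, and the microRNAs themselves were not measured here. The mature forms are shown because they tie the pair together in sequence, with the seed, bases 2 to 8, in capitals. They differ at 3 of 22 positions and share the seed.
mmu-miR-208a-3p, chr14:54949072-54949093, minus strand: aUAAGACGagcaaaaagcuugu
mmu-miR-208b-3p, chr14:54975710-54975731, minus strand: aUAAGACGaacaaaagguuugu

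For Nppa and Myh7, the members called on both probes against chow, the 250 bases before the annotated start are shown (RefSeq, GRCm38.p6), 5′ to 3′ on the gene's strand. Capitals mark matches, on either strand, to the GATA site GATAA or the MCAT element CATTCC. A CArG box was searched for as well. Of 32851 windows of this length before annotated mouse starts, 22.6% hold GATAA, 12.6% hold CATTCC and 1.47% hold a CArG box.
Nppa, chr4:148000472-148000721, plus strand: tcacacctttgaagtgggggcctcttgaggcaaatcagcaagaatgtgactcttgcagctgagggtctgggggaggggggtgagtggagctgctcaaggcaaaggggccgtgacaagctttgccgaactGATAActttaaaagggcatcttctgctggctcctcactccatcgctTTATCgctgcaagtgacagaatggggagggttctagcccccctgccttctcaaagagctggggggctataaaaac
Myh7, chr14:54994627-54994876, minus strand: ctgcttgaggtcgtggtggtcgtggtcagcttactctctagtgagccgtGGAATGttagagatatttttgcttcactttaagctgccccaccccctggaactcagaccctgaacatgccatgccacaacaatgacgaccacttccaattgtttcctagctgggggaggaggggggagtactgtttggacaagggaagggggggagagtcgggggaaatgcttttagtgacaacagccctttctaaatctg
The Nppa window holds GATAA on the plus strand, 121 to 117 bases before the start, and on the minus strand, 75 to 71 bases before it. Myh7 has 2 annotated starts, and the window shown lies before the upstream one. It holds CATTCC on the minus strand, 201 to 196 bases before that start, whereas the overlapping window before the other start holds none of the motifs searched. The only member window with a CArG box was that of Acta1, 73 to 64 bases before its start.

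Myh7, the slow beta myosin heavy chain, moved more than any other member, with a span of 4.29 log2 units over the 20 hearts on probe 1. It was lowest after 3 weeks of fenofibrate and highest after 8 weeks in both genotypes. In MuRF1 -/- hearts probe 1 read 1.42, 0.25 and 1.20 on chow, then 0.13, 0.35, -0.86 and 0.57 at 3 weeks, then 2.35, 1.58 and 2.00 at 8 weeks. In MuRF1 +/+ hearts it read -0.09, 0.51 and 0.00 on chow, then -0.52, -1.88, -1.42 and -0.79 at 3 weeks, then 2.40, 0.84 and 2.27 at 8 weeks. Every 8-week heart lay above every chow heart and every 3-week heart of its own genotype. The order of the group means was MuRF1 +/+ 3 weeks, MuRF1 -/- 3 weeks, MuRF1 +/+ chow, MuRF1 -/- chow, MuRF1 +/+ 8 weeks, MuRF1 -/- 8 weeks, and each of these neighbours overlapped in their hearts.

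**Figure D1:**
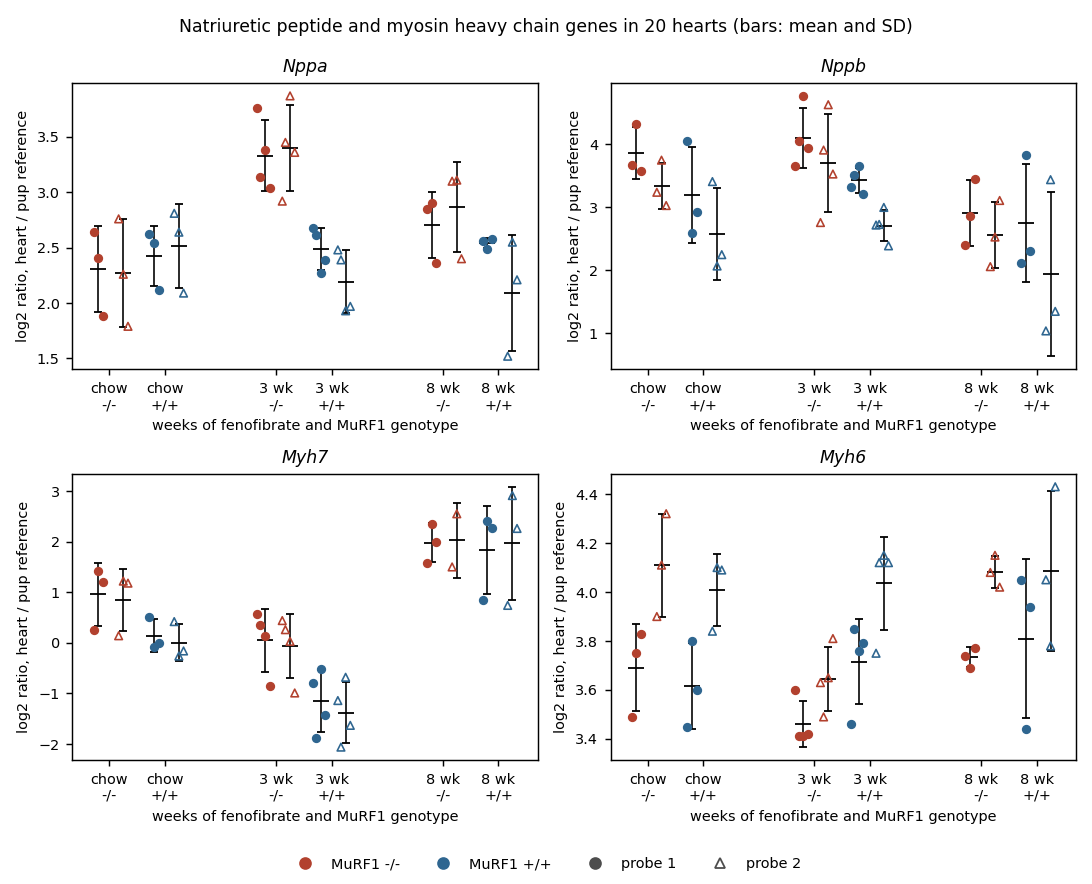
Log2 ratio of heart over pup reference (y axis, a separate range in each panel) for Nppa, Nppb, Myh7 and Myh6 in each of the 20 hearts, by weeks of fenofibrate and genotype (x axis). Points are hearts, filled circles probe 1 and open triangles probe 2, and bars are the group mean and SD (n = 3, or 4 at 3 weeks). Myh7 is lowest at 3 and highest at 8 weeks, and Nppa stands high in the 4 MuRF1 -/- hearts at 3 weeks.

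The later against the earlier fenofibrate hearts gave the widest difference. In MuRF1 -/- mice Myh7 averaged 1.97 ± 0.39 at 8 weeks (SD, n = 3) and 0.05 ± 0.63 at 3 weeks (SD, n = 4). Probe 1 was thus 3.80-fold higher at 8 weeks (log2 1.93 ± 0.41, limma adjusted p = 0.00165) and probe 2 was 4.27-fold higher (log2 2.09 ± 0.53, limma adjusted p = 0.00615). Myh7 in MuRF1 +/+ mice averaged 1.84 ± 0.87 at 8 weeks and -1.16 ± 0.62 at 3 weeks. There probe 1 was 7.96-fold higher (log2 2.99 ± 0.41, limma adjusted p = 0.000115) and probe 2 was 10.1-fold higher (log2 3.34 ± 0.47, limma adjusted p = 0.000165). The rise of probe 1 was called under all 17 alternative settings in each genotype, with log2 1.47 to 2.19 in MuRF1 -/- and 2.14 to 3.49 in MuRF1 +/+ mice. Within slides that held both groups it was 1.22 to 1.42 in MuRF1 -/- and 3.06 to 4.29 in MuRF1 +/+ mice, over 2 slides each. Probe 2 has no value on MuRF1 -/- 8-week replicate 3, where its spot carried an outlier flag, and its call in that genotype was lost without replicate 1 (limma adjusted p = 0.0995). This comparison was added after the values were seen. In it 4 of 12 member probes were called in MuRF1 -/- mice, where 31.6% of all tested probes were called, and 2 of 12 in MuRF1 +/+ mice, where 16.3% were.

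Against chow, Myh7 passed the test in MuRF1 +/+ mice in both directions. At 3 weeks it fell to -1.16 on probe 1, against 0.14 on chow (log2 -1.30 ± 0.41, 2.45-fold lower, limma adjusted p = 0.0263), and probe 2 fell alike (log2 -1.38 ± 0.47, limma adjusted p = 0.0384). At 8 weeks it was 3.25-fold higher than on chow on probe 1 (log2 1.70 ± 0.44, limma adjusted p = 0.0169) and 3.90-fold higher on probe 2 (log2 1.96 ± 0.50, limma adjusted p = 0.0168). In both of these comparisons the groups did not overlap. The calls were less steady than those of 8 against 3 weeks. The 3-week call of probe 1 was kept in 11 of 17 alternative settings and the 8-week call in 9 of 16, with the same sign in all of them. Those of probe 2 were kept in 7 of 17 and 10 of 16. The 8-week call was lost with the authors' series matrix, Agilent's own ratio, the heart channel alone and the fit of only those groups, and the adjusted p reached 0.18.

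Some of these losses followed single hearts. Without MuRF1 +/+ 8-week replicate 3, chow replicate 1 or chow replicate 3 the 8-week call of Myh7 probe 1 was lost. Without MuRF1 +/+ 8-week replicate 2, which read 0.84 beside 2.40 and 2.27, the difference was 2.20 on probe 1 (limma adjusted p = 0.00404). The 3-week call of probe 1 was lost without 3-week replicates 2 or 3 or chow replicates 2 or 3, and that of probe 2 also without 3-week replicate 4 or chow replicate 1. Within slides that held both groups, the 3-week difference in MuRF1 +/+ ran from -2.39 to -0.43 and the 8-week difference from 0.84 to 1.90, over 2 slides each.

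For MuRF1 -/- mice neither Myh7 difference from chow passed. Probe 1 was 0.91 ± 0.41 log2 lower at 3 weeks, with overlapping groups (limma adjusted p = 0.109), and 1.01 ± 0.44 higher at 8 weeks with no overlap (limma adjusted p = 0.325). Leaving out the 2 arrays that stood apart, a setting added after the data were seen, the 3-week difference in MuRF1 -/- mice was -1.09 ± 0.35 (limma adjusted p = 0.0222). Whether the responses differ between the genotypes was tested directly, and the difference of responses was 0.38 ± 0.58 at 3 weeks and -0.68 ± 0.62 at 8 weeks on probe 1, neither called (limma adjusted p = 0.999 and 0.56). Averaged over diets Myh7 was 0.72 ± 0.24 log2 higher in MuRF1 -/- hearts, which did not pass over all probes (unadjusted p = 0.00782, limma adjusted p = 0.535).

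Myh6, the fast alpha chain that dominates the adult mouse ventricle, had the narrowest span of the members. Probe 1 read 3.41 to 4.05 over all 20 hearts, a span of 0.64, and probe 2 read 3.49 to 4.43. In MuRF1 -/- hearts probe 1 averaged 3.69 ± 0.18 on chow, 3.46 ± 0.09 at 3 weeks and 3.74 ± 0.04 at 8 weeks. In MuRF1 +/+ hearts it averaged 3.62 ± 0.18 on chow, 3.71 ± 0.17 at 3 weeks and 3.81 ± 0.32 at 8 weeks (SD, n = 3, 4 and 3). No Myh6 probe was called in any comparison with the main processing. The widest difference from chow was that of probe 2 in MuRF1 -/- hearts at 3 weeks, where the level was 3.65, against 4.11 on chow (log2 -0.47 ± 0.29, limma adjusted p = 0.263), with no overlap. With the heart channel alone that difference was -0.61 ± 0.15 (limma adjusted p = 0.00399). In that setting both probes were also called higher at 8 than at 3 weeks in MuRF1 -/- hearts. The differences were log2 0.72 ± 0.24 on probe 1 and 0.77 ± 0.15 on probe 2 (limma adjusted p = 0.0241 and 0.000455).

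The balance of the myosins was taken per heart as the level of Myh7 minus that of Myh6 on the brighter probes. Only its shifts can be read, since each probe has its own scale. In MuRF1 -/- hearts it was -2.33, -3.24 and -2.63 on chow, -3.28, -3.05, -4.28 and -3.02 at 3 weeks, and -1.34, -2.17 and -1.77 at 8 weeks. In MuRF1 +/+ hearts it was -3.89, -2.94 and -3.60 on chow, -4.28, -5.73, -5.21 and -4.25 at 3 weeks, and -1.04, -3.21 and -1.67 at 8 weeks. The 8-week hearts stood above the 3-week hearts of their genotype without overlap in both genotypes. At 8 relative to 3 weeks the balance was 1.65 log2 units higher in MuRF1 -/- and 2.90 higher in MuRF1 +/+ mice, and 0.88 to 1.25 and 2.57 to 4.70 within slides. Each had an exact two-sided permutation p = 0.0571, the smallest that 3 against 4 hearts allow, and 0.128 after adjustment over 9 comparisons. With groups of this size the test could not have passed in either genotype.

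**Figure D2:**
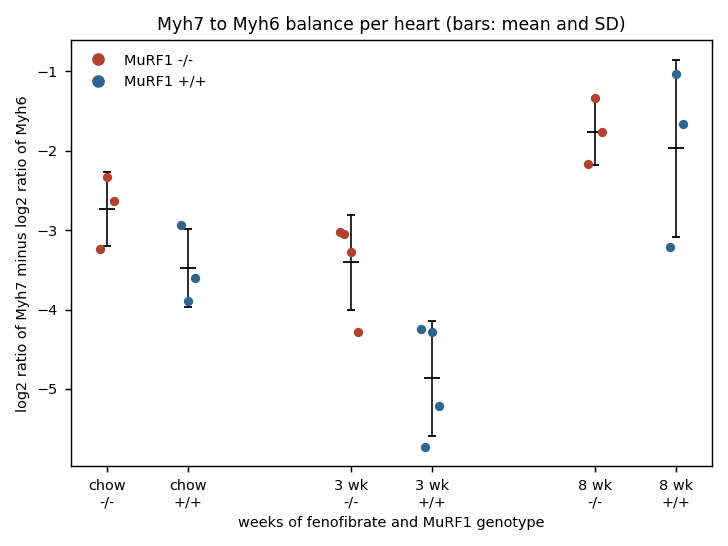
Myh7 level minus Myh6 level in each heart on the brighter probes (y axis, log2), by weeks of fenofibrate and genotype (x axis). Points are hearts and bars the group mean and SD. The 8-week hearts lie above the 3-week hearts of their own genotype, and 1 MuRF1 +/+ heart at 8 weeks, at -3.21, lies among the chow hearts.

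Against chow the balance at 3 weeks was 0.68 log2 units lower in MuRF1 -/- hearts (exact permutation p = 0.171). It was 1.39 lower in MuRF1 +/+ hearts with no overlap (exact permutation p = 0.0571, again the smallest possible). At 8 weeks it was 0.97 higher in MuRF1 -/- hearts with no overlap (exact permutation p = 0.1, the smallest that 3 against 3 hearts allow) and 1.50 higher in MuRF1 +/+ hearts with overlap (exact permutation p = 0.2). Between the genotypes MuRF1 -/- hearts were 1.46 higher at 3 weeks, averaging -3.41 ± 0.59 against -4.87 ± 0.73 in MuRF1 +/+ hearts (SD, n = 4 each; exact permutation p = 0.0571), 0.75 higher on chow (exact permutation p = 0.2) and 0.21 higher at 8 weeks (exact permutation p = 0.9). After Benjamini-Hochberg adjustment over these 7 comparisons the lowest p was 0.2. With groups this small none of them could have passed after adjustment, whatever the values, so the test cannot decide them. The 3-week genotype comparison could have reached 0.0286 before adjustment only. Its value of 1.46 lay between 1.17 and 1.75 over 17 alternative settings and between 1.00 and 2.16 within slides. At 8 weeks the sign of the genotype difference turned without MuRF1 +/+ replicate 2, to -0.40, and was -0.30 to -0.10 within slides.

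Nppa, the gene of atrial natriuretic peptide, rose at 3 weeks in hearts without MuRF1. Probe 1 read 3.38, 3.14, 3.04 and 3.76 in MuRF1 -/- hearts at 3 weeks, against 2.41, 2.64 and 1.88 in MuRF1 -/- hearts on chow. Probe 2 read 3.87, 3.45, 3.36 and 2.92 at 3 weeks, against 2.26, 2.76 and 1.79 on chow. On both probes every 3-week heart was above every chow heart. Probe 1 was 2.03-fold higher (log2 1.02 ± 0.21, limma adjusted p = 0.00202) and probe 2 was 2.19-fold higher (log2 1.13 ± 0.29, limma adjusted p = 0.00834). Within slides the difference was 0.50 to 1.16 on probe 1 and 0.69 to 1.62 on probe 2, over 3 slides. These were 2 of 12 member probes called in this comparison, both upward, where 26.2% of all tested probes were called.

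Each Nppa probe is printed 10 times on the array, so its reading can be checked within a heart. The SD over the spots of a probe was between 0.02 and 0.11 in every heart. The probes disagreed more than their spots did. On MuRF1 -/- 3-week replicate 4, one of the arrays that stood apart, probe 1 gave the highest value of its group (3.76) and probe 2 the lowest (2.92). Over 20 hearts the correlation between the probes was 0.77, as a description. The call of probe 1 was kept in all 17 alternative settings and that of probe 2 in 16, the exception being the fit without MuRF1 -/- chow replicate 3, at an adjusted p of 0.066.

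Markers of atrial muscle are given beside this result because atrial tissue makes far more ANP than ventricle. The mean over 6 of 8 markers ran from -0.57 to 0.23 in MuRF1 -/- hearts at 3 weeks and from -0.53 to -0.34 in MuRF1 -/- hearts on chow. In these hearts Myl7 averaged -0.96 at 3 weeks against -1.82 on chow, and Kcna5 2.36 against 1.49. The means of Sln, Pam and Myl4 were higher at 3 weeks too, and those of Stard10 and Tbx5 were lower. Of the 7 tested markers 0 were called, where 26.2% of all tested probes were, and their part in the Nppa result was not tested. The atrial marker Bmp10 was above background on 0 arrays, while Myl7 and Sln were above background on all 20. At 3 weeks in MuRF1 +/+ hearts 1 of 7 tested atrial markers was called, where 25% of all tested probes were. This was Myl7, 3.47-fold higher than on chow (log2 1.79 ± 0.50, limma adjusted p = 0.0135), and the list's median difference was 0.27. The mean of the endothelial markers was 0.25 to 0.63 in MuRF1 -/- hearts at 3 weeks, against -0.06 to 0.13 on chow. Of these, 2 of 8 tested were called, both higher, a share near the 26.2% of all tested probes. The mean of the vascular smooth muscle markers was -1.36 to -1.15 at 3 weeks, against -0.99 to -0.36 on chow, with 3 of 6 tested called, all lower. Des, which was among those called, averaged -0.06 at 3 weeks against 1.70 on chow. Myh11 averaged -1.15 against -0.98 and Tagln -1.49 against -1.33, and the means of Acta2, Smtn and Cnn1 were lower as well. The part of either list in the Nppa result was not tested. In bulk hearts more cells of a type and more RNA per cell cannot be told apart.

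At 8 weeks Nppa in MuRF1 -/- hearts read 2.90, 2.85 and 2.36 on probe 1, below every 3-week value and overlapping the chow values. It was 0.62 ± 0.21 log2 lower than at 3 weeks (limma adjusted p = 0.0337), a call kept in 8 of 17 settings and lost without 3-week replicates 1 or 4 or 8-week replicates 2 or 3, and 0.40 ± 0.23 above chow (limma adjusted p = 0.553). Probe 2 averaged 2.87 ± 0.41 at 8 weeks, 3.40 ± 0.39 at 3 weeks and 2.27 ± 0.48 on chow (SD, n = 3, 4 and 3). Its 8-week hearts, at 2.40 to 3.11, overlapped both other groups, and it was called against neither. Without the 2 arrays that stood apart, probe 2 was called lower at 8 than at 3 weeks (log2 -0.69 ± 0.26, limma adjusted p = 0.039). Nppa was not called against chow in MuRF1 +/+ hearts. Probe 1 read 2.54, 2.62 and 2.12 on chow, 2.27, 2.61, 2.39 and 2.68 at 3 weeks, and 2.49, 2.56 and 2.58 at 8 weeks. Probe 2 averaged 2.51 ± 0.37 on chow, 2.19 ± 0.28 at 3 weeks and 2.09 ± 0.53 at 8 weeks (SD, n = 3, 4 and 3). In the order of levels the MuRF1 -/- 3-week group stood first on both probes, and the other 5 groups overlapped one another on probe 1.

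At 3 weeks the MuRF1 -/- hearts exceeded the MuRF1 +/+ hearts without overlap on both Nppa probes. The difference was 0.84 ± 0.20 log2 on probe 1 (unadjusted p = 0.000495) and 1.21 ± 0.27 on probe 2 (unadjusted p = 0.000297), and neither passed over all probes (limma adjusted p = 0.106 and 0.0784). In this comparison 0 of 12 member probes and 0.25% of all tested probes were called, and 5 of 12 member probes were at an unadjusted p under 0.05, as were 5.35% of all tested probes. Probe 2 was called with slide as a block (log2 1.40 ± 0.23, limma adjusted p = 0.0439) and without MuRF1 -/- replicate 4 (log2 1.37 ± 0.28, limma adjusted p = 0.034), and probe 1 with the heart channel alone (log2 1.90 ± 0.35, limma adjusted p = 0.0229). The difference of the 3-week responses was 0.96 ± 0.30 on probe 1 and 1.46 ± 0.41 on probe 2 (unadjusted p = 0.00535 and 0.00245, limma adjusted p = 0.999 for both). None of the 12 member probes and 0.0048% of all probes were called in that test.

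Nppb, the gene of brain natriuretic peptide, was not called at 3 weeks, where its neighbour Nppa was. Probe 1 read 4.33, 3.67 and 3.57 on chow in MuRF1 -/- hearts, 4.77, 4.05, 3.95 and 3.65 at 3 weeks, and 2.87, 2.40 and 3.45 at 8 weeks. For MuRF1 +/+ hearts it read 2.60, 4.06 and 2.93 on chow, 3.65, 3.52, 3.22 and 3.32 at 3 weeks, and 3.83, 2.12 and 2.31 at 8 weeks. At 3 weeks its difference from chow was 0.25 ± 0.42 in MuRF1 -/- and 0.23 ± 0.42 in MuRF1 +/+ mice, with overlap in both (limma adjusted p = 0.709 and 0.741). The 8-week MuRF1 -/- hearts all lay below the chow and the 3-week hearts of that genotype on this probe.

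At 8 against 3 weeks in MuRF1 -/- mice Nppb probe 1 was 2.30-fold lower (log2 -1.20 ± 0.42, limma adjusted p = 0.0378). The call was kept in 8 of 17 settings and lost without 3-week replicates 1, 2 or 3 or 8-week replicates 1 or 2. Probe 2 gave log2 -1.14 ± 0.50 (limma adjusted p = 0.0906), with overlapping groups. Against chow the 8-week difference was -0.95 ± 0.45 on probe 1 (unadjusted p = 0.0506, limma adjusted p = 0.414). In that comparison 0 of 12 member probes were called and 1.89% of all tested probes were. At 8 weeks Nppb and Myh7 therefore stood on opposite sides of their chow levels in MuRF1 -/- hearts, Nppb below and Myh7 above, neither past the threshold.

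Nppb was also among the members that varied most from heart to heart inside a group, with a pooled within-group SD of 0.57 on probe 1 and 0.72 on probe 2, against 0.27 for probe 1 of Nppa and 0.18 for probe 1 of Myh6. In MuRF1 +/+ hearts at 8 weeks replicate 1 read 3.83 and the others 2.12 and 2.31. Without that heart, probe 2 was 1.39 ± 0.46 log2 below chow (limma adjusted p = 0.0286), and below the 3-week hearts on both probes (log2 -1.22 ± 0.40 and -1.52 ± 0.43, limma adjusted p = 0.0453 and 0.0229).

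**Figure D3:**
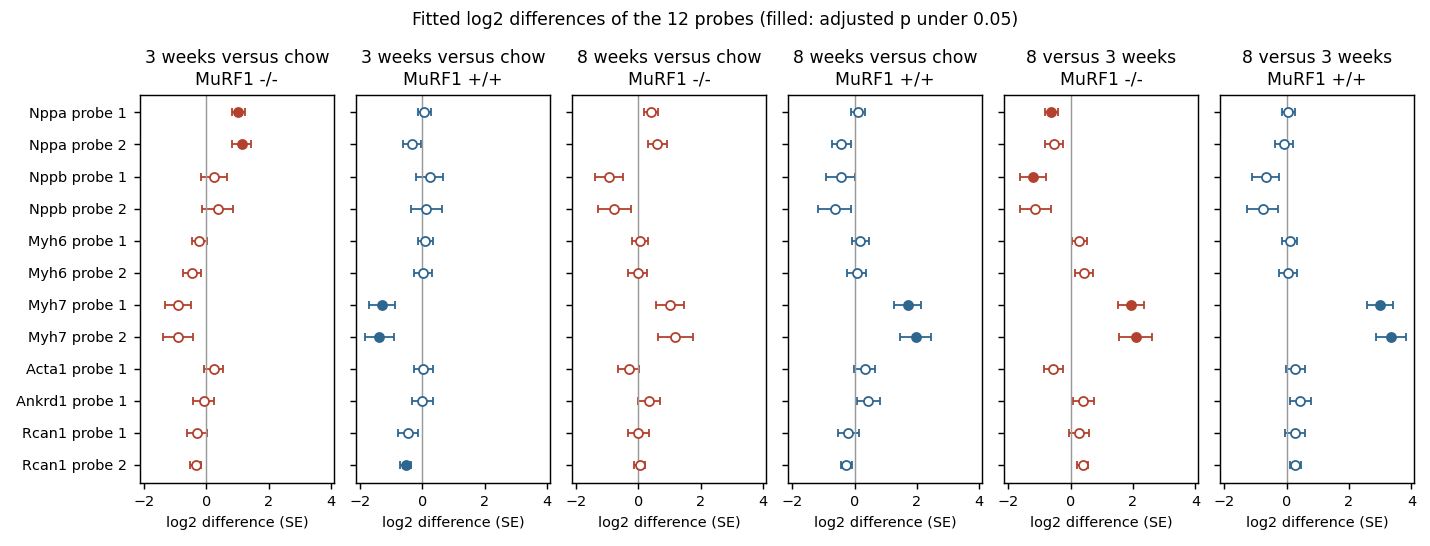
Fitted log2 differences with SE (x axis) of the 12 probes (rows) in 6 comparisons (panels), red for MuRF1 -/- and blue for MuRF1 +/+. Filled points passed an adjusted p of 0.05. The Myh7 points lie left of 0 at 3 weeks and right of 0 at 8 weeks in both genotypes, and filled Nppa points to the right of 0 appear in the MuRF1 -/- panel at 3 weeks.

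Acta1, skeletal alpha-actin, which the mouse heart expresses strongly before birth, was far below the pup reference in every heart. It read -3.69, -4.06 and -4.51 in the chow, -4.09 to -3.37 in the 3-week and -4.43 to -4.34 in the 8-week MuRF1 -/- hearts. In MuRF1 +/+ hearts it ran from -4.30 to -3.95 on chow, from -4.31 to -3.74 at 3 weeks and from -4.24 to -3.20 at 8 weeks. It was called in none of the 12 comparisons. The highest value, -3.20, came from MuRF1 +/+ 8-week replicate 2. The genotypes did not overlap at 8 weeks, averaging -4.40 ± 0.05 in MuRF1 -/- and -3.77 ± 0.53 in MuRF1 +/+ hearts (log2 -0.63 ± 0.33, limma adjusted p = 0.279).

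Ankrd1, the titin-binding stretch protein CARP, differed little between diets. In MuRF1 -/- hearts it averaged 3.55 ± 0.39 on chow, 3.47 ± 0.34 at 3 weeks and 3.88 ± 0.14 at 8 weeks. In MuRF1 +/+ hearts it averaged 2.96 ± 0.46 on chow, 2.97 ± 0.23 at 3 weeks and 3.40 ± 0.81 at 8 weeks (SD, n = 3, 4 and 3). The MuRF1 -/- mean was the higher on each diet, by 0.59 on chow, 0.50 at 3 weeks and 0.48 at 8 weeks, with overlapping groups each time. Averaged over diets the difference was 0.53 ± 0.20 (unadjusted p = 0.016, limma adjusted p = 0.641). In that comparison 0 of 12 member probes and 0.178% of all tested probes were called, with 6 of 12 member probes at an unadjusted p under 0.05, as were 5.87% of all tested probes.

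A MuRF1 +/+ heart at 8 weeks stood apart in Ankrd1. Replicate 2 read 2.48, the lowest of all 20 hearts, while the other 8-week hearts of that genotype read 3.70 and 4.02. Without it and the other array that stood apart, Ankrd1 was 0.90 ± 0.28 log2 higher than on chow (limma adjusted p = 0.0492) and 0.89 ± 0.26 higher than at 3 weeks (limma adjusted p = 0.0199). Without replicate 2 alone, the difference from 3 weeks was 0.89 ± 0.29 (limma adjusted p = 0.0415). With all hearts the difference from chow was 0.44 ± 0.36 (limma adjusted p = 0.406).

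**Figure D4:**
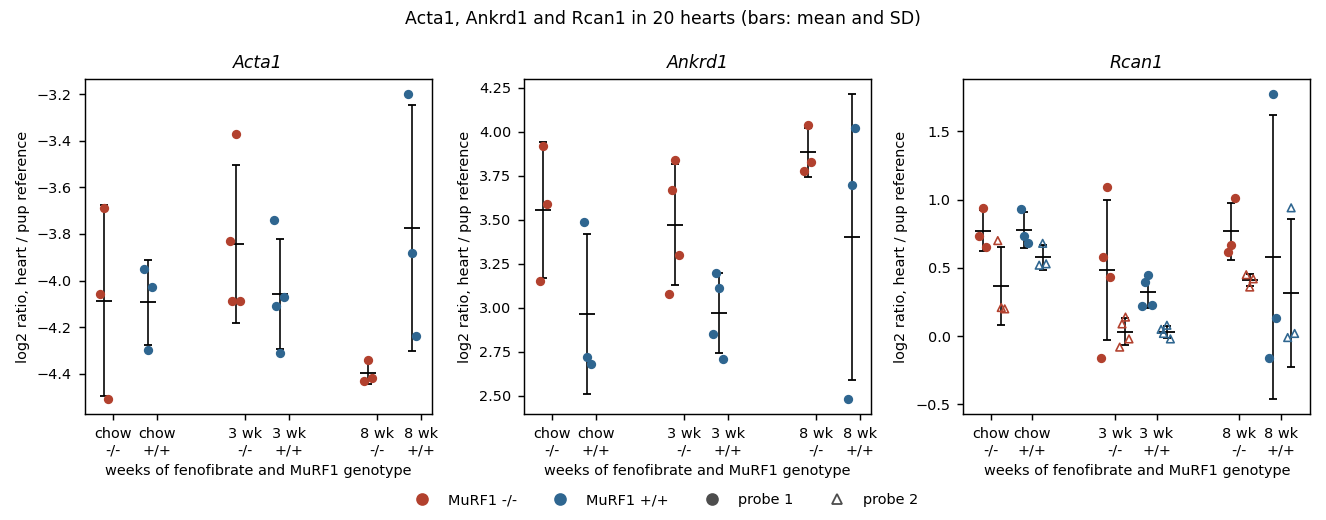
Log2 ratio of heart over pup reference (y axis, a separate range in each panel) for Acta1, Ankrd1 and Rcan1 in the 20 hearts, by weeks of fenofibrate and genotype (x axis). Points are hearts, filled circles probe 1 and open triangles probe 2, and bars are the group mean and SD. The MuRF1 +/+ hearts at 8 weeks spread most widely on each of the brighter probes.

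Rcan1, the calcineurin inhibitor, was lower at 3 weeks on its dimmer probe. Probe 2 read 0.08, 0.02, -0.02 and 0.05 in MuRF1 +/+ hearts at 3 weeks, against 0.68, 0.52 and 0.53 on chow. The groups did not overlap, and the difference was log2 -0.54 ± 0.17 (limma adjusted p = 0.0237). This probe was well above background on 13 of 20 arrays and on 2 of the 4 MuRF1 +/+ 3-week arrays, so its low values are close to background. Probe 1, above background on all arrays, read 0.45, 0.40, 0.23 and 0.22 at 3 weeks, against 0.73, 0.93 and 0.68 on chow, also without overlap (log2 -0.46 ± 0.32, limma adjusted p = 0.325). On probe 1 the MuRF1 -/- 3-week and MuRF1 +/+ 8-week hearts, which share the fitted error, spread from -0.16 to 1.09 and from -0.16 to 1.77. With only the groups compared in the fit, probe 1 was called lower (log2 -0.46 ± 0.084, limma adjusted p = 0.00105), and in no other setting.

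With the Myh7 probes, probe 2 of Rcan1 made 3 of 12 member probes called in MuRF1 +/+ mice at 3 weeks, all downward, where 25% of all tested probes were called. The Rcan1 call was kept in 13 of 17 alternative settings, over which its difference ran from log2 -2.56 to -0.35. It was lost with the heart channel alone and without MuRF1 +/+ 3-week replicate 3, chow replicate 1 or chow replicate 3, at adjusted p up to 0.0989. In MuRF1 -/- hearts at 3 weeks probe 2 averaged 0.03 ± 0.10, against 0.37 ± 0.29 on chow (log2 -0.34 ± 0.17, limma adjusted p = 0.149), without overlap. At 8 weeks neither probe was called against chow in either genotype. In MuRF1 +/+ mice at 8 weeks the member calls were those of Myh7 alone, 2 of 12, where 13.4% of all tested probes were called. Without replicate 1 of that group Rcan1 probe 1 was lower than on chow (log2 -0.79 ± 0.23, limma adjusted p = 0.016). Probe 2 was not well above background on either remaining array of the group, so no difference is given for it.

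Whether the members vary together from heart to heart was asked with the group means removed, over 20 hearts and all 21 pairs on the brighter probes. One pair passed. Nppb and Rcan1 moved together (Pearson r = 0.84, permutation p = 2e-05, 0.00042 after Benjamini-Hochberg adjustment over 21 pairs; Spearman rho = 0.87, permutation p = 5e-05, adjusted 0.00105). Without the 2 hearts farthest out on Nppb, MuRF1 +/+ 8-week replicate 1 and chow replicate 2, r was 0.83 (permutation p = 0.00023). With slide means removed as well r was 0.81, and on the dimmer probes of both genes it was 0.63. With Agilent's own ratio r was 0.39 and did not pass, and in the other 3 settings tried it was 0.63 to 0.78.

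**Figure D5:**
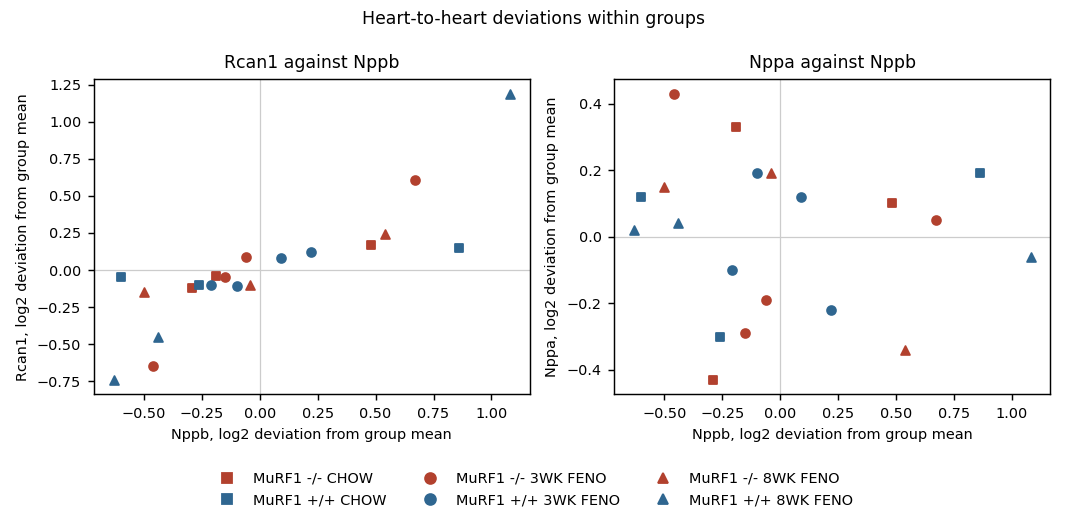
Deviation of each heart from its group mean (log2) of Rcan1 (left, y axis) and Nppa (right, y axis) against that of Nppb (x axis), on the brighter probes. Points are the 20 hearts, by diet (shape) and genotype (colour). Rcan1 rises with Nppb (r = 0.84), with the highest point from MuRF1 +/+ 8-week replicate 1, and Nppa does not (r = -0.10).

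The neighbours Nppa and Nppb showed no relation past the threshold within groups (Pearson r = -0.10, permutation p = 0.686; Spearman rho = -0.08, permutation p = 0.759; r = -0.09 without the 2 hearts farthest out on Nppa). With the heart channel alone the r of Nppa and Nppb was 0.58, not past the threshold either. Nor did Myh6 and Myh7 show an inverse relation past the threshold (Pearson r = -0.26, permutation p = 0.464, adjusted 0.819; Spearman rho = -0.21, permutation p = 0.484; r = -0.06 without the 2 hearts farthest out on Myh6). Nppb with Myh6 (r = -0.60) and Nppb with Ankrd1 (r = 0.61) had permutation p = 0.0504 and 0.0737, and 0.265 and 0.309 after adjustment. Myh7 with Ankrd1 (r = 0.60) and Myh6 with Rcan1 (r = -0.65) had permutation p = 0.0348 and 0.0458, both 0.265 after adjustment.

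Genes whose levels tracked a member most closely over the 20 hearts, among 14332 genes and with group differences left in, were named as a description. Myh7 was most like Ap4m1, Arhgap24 and Man1a (r = 0.87, 0.86 and 0.85). Nppa was most like Pacs2, BC057363 and Ccin (0.82, 0.81 and 0.81), Nppb like Fuca2, Rabepk and Ugp2 (0.84, 0.81 and 0.80), and Ankrd1 like Tnfrsf12a, Prnp and Clint1 (0.85, 0.84 and 0.81). Acta1 was most like Col8a1, Fam20a and Fxyd5 (0.88, 0.87 and 0.85), Rcan1 like TC1461328, Tmem267 and Emc3 (0.90, 0.90 and 0.89), and Myh6 like BE570772, 2310010J17Rik and Gpr182 (0.79, 0.78 and 0.75). With group means removed the r of Myh7 with Ap4m1, Arhgap24 and Man1a was 0.58, 0.66 and 0.33, and that of Acta1 with its 3 genes was 0.90, 0.86 and 0.80.

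Lists of genes around these members were counted for context, against the 26.2% and 25% of all tested probes called at 3 weeks in MuRF1 -/- and MuRF1 +/+ hearts, and the counts alone show nothing particular to a list. Of 15 transcription factors and cofactors of the myosin switch and cardiac stress, 2 rose and 3 fell at 3 weeks in MuRF1 -/- hearts (list median log2 0.20, all tested probes -0.01), and 3 rose and 4 fell in MuRF1 +/+ hearts (0.08, all tested probes -0.01). Tead1, which binds MCAT elements, rose by log2 0.48 ± 0.13 in MuRF1 -/- and 0.74 ± 0.13 in MuRF1 +/+ hearts. Srf, which binds CArG boxes, fell by 0.51 ± 0.11 and 0.67 ± 0.11 on the log2 scale in MuRF1 -/- and MuRF1 +/+ hearts, and the cardiac factor Nkx2-5 fell by 1.07 ± 0.22 and 1.18 ± 0.22. At 8 weeks Srf was the 1 gene of the list called in either genotype, again lower (log2 -0.50 ± 0.12 in MuRF1 -/-, -0.68 ± 0.12 in MuRF1 +/+). These limma adjusted p-values were between 0.000419 and 0.0409.

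Of 12 adult ventricular sarcomere genes, 2 rose and 2 fell at 3 weeks in MuRF1 -/- hearts (median 0.14) and 3 rose and 1 fell in MuRF1 +/+ hearts (median 0.28). Titin (Ttn) rose 2.97-fold in MuRF1 -/- and 3.94-fold in MuRF1 +/+ hearts, and the M-band gene Myom2 rose 1.93-fold and 1.59-fold. Cardiac actin, Actc1, fell by 0.66 ± 0.19 in MuRF1 -/- and 0.64 ± 0.19 in MuRF1 +/+ hearts on the log2 scale. At 8 weeks in MuRF1 +/+ hearts, where 13.4% of all tested probes were called, Myom2 was 2.37-fold higher, Ttn 2.47-fold higher and Actc1 3.12-fold lower (limma adjusted p = 0.000303, 0.0125 and 0.000117), and the other genes of the list were not called. Of 8 tested fetal or non-adult sarcomere isoforms besides the members, Myl7 rose at 3 weeks in MuRF1 +/+ hearts, and Acta2, the smooth muscle actin, fell at 3 weeks in both genotypes and at 8 weeks in MuRF1 +/+ hearts. The other 6 were not called against chow.

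Among 20 genes of calcineurin, NFAT and MEF2 signalling, the pathway that Rcan1 reports on, the catalytic subunit Ppp3ca rose at 3 weeks in MuRF1 -/- (1.35-fold) and MuRF1 +/+ hearts (1.34-fold), and the anchor Akap5 rose 1.39-fold and 1.61-fold. Nfatc1 and Nfatc2 fell in MuRF1 +/+ hearts at 3 weeks (1.18-fold and 1.26-fold lower). The list medians were 0 in MuRF1 -/- and -0.04 in MuRF1 +/+ hearts. Of 9 tested genes of natriuretic peptide processing and reception, 2 were called at 3 weeks in MuRF1 -/- hearts, a share near that of all tested probes. The convertase Furin was 1.53-fold lower and the clearance receptor Npr3 1.30-fold higher (limma adjusted p = 0.0406 and 0.0455), while Corin, which cleaves the ANP precursor, was not called.

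Of 10 relatives and Z-disc partners of Ankrd1, 2 fell at 3 weeks in MuRF1 -/- and 3 in MuRF1 +/+ hearts, among them desmin (Des), 3.40-fold and 2.69-fold lower. Des is also on the list of vascular smooth muscle markers, where 3 of 6 fell at 3 weeks in both genotypes, Des among them. In MuRF1 +/+ hearts Tagln averaged -1.19 at 3 weeks against -1.52 on chow, and the Myh11 mean was higher too. There Cnn1 averaged -2.28 against -2.22, and the means of Acta2 and Smtn were lower. In MuRF1 -/- hearts the means of all 6 were lower, Myh11 at -1.15 against -0.98 and Tagln at -1.49 against -1.33. The part of that tissue in the Des result was not tested. Of 13 further tested stress markers, the matrix growth regulator Ccn2 was 4.29-fold higher (log2 2.10 ± 0.46, limma adjusted p = 0.00677) at 8 weeks in MuRF1 +/+ hearts, where Xirp2 was 1.69-fold lower. The mean of 8 endothelial markers in that group was 0.30 to 1.32, against -0.03 to 0.02 in MuRF1 +/+ hearts on chow, and their part in these values was not tested.

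In the remaining genotype comparisons 0 of 12 member probes were called. On chow 0.0624% of all tested probes were called and 0 member probes were at an unadjusted p under 0.05. At 8 weeks 0.13% of all probes were called, and Nppa probe 2 was the 1 member probe at an unadjusted p under 0.05, as were 20.9% of all tested probes. Its difference was log2 0.78 ± 0.31 (limma adjusted p = 0.177). These counts hung on MuRF1 +/+ 8-week replicate 1, without which 4388 probes were called, against 27. Then Nppa probe 2 (log2 1.01 ± 0.33), Nppb probe 2 (1.37 ± 0.46) and Rcan1 probe 1 (0.78 ± 0.23) were called higher in MuRF1 -/- hearts (limma adjusted p = 0.0399, 0.0409 and 0.0256). Rcan1 probe 2, close to background there, was called as well. In the difference of the 8-week responses 0% of all probes were called, although 16.7% had an unadjusted p under 0.05. Without the same heart 2398 probes were called in it, with Rcan1 probe 2 the 1 member probe among them.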

How the data were processed

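Per the file headers, the authors scanned 20 Agilent 2-colour arrays and Feature Extraction 9.5.3.1 wrote the deposited spot intensity, which is not normalized. The deposited log10 ratio of Cy5 over Cy3 had been background-subtracted, detrended and dye-normalized per the file headers. A log2 ratio per probe was deposited too, in the authors' series matrix. How it was made is not given in the sources here. Their slopes against the scanner ratios, 0.983 to 1.01, fix scale and direction, and their column medians ran from -0.00598 to 0.00913. The label protocol names Cy3 for heart RNA, whereas the channel labels name Cy5, which was followed. No dye swap is labelled.

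From the intensities, limma 3.58.1 (R 4.3.3) ran normexp (offset 50) and loess within arrays with control spots at weight 0. Outlier-flagged spots (105 to 423 per array) and 7 spots whose background exceeded the signal by over 50, all on MuRF1 -/- chow replicate 2, were left out. Spots of a probe were averaged. Probes entered the test with 3 or more heart-channel values well above background. The share above background was 34.0% to 51.9% per array, 0 heart spots were saturated, and the number of arrays limits the precision. One limma model with a mean per group (6) took in all arrays, with trended eBayes and Benjamini-Hochberg adjustment. The fit was tested on simulated data. Slides, 5 of 4 arrays, were told apart by scan, and the slide values rest on this: the headers of 4 arrays carry the barcode of another scan's slide. Hearts are biological replicates per the labels. Same-numbered hearts were not paired: their deviations correlated at over 0.1 for every pair in no comparison.

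The balance was tested by exact permutation and correlations with 100000 permutations within groups (scipy). Alternatives were other background corrections, the scanner and matrix ratios, the heart channel alone, other filters, slide or replicate blocks, only the groups compared, and each heart left out. Named were all member probes, up to 3 called genes per list and comparison with the smallest adjusted p (some beyond this for the list counts, chosen after their values were seen), and the 3 most similar genes. Members, lists and comparisons were chosen with earlier results of these data known. Names follow RefSeq (GRCm38.p6).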

Additional observations from a re-analysis of the deposited data

Results flagged for a closer look

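In groups of 4 hearts, the 2 groups at 3 weeks, 26 sets of values were checked for a heart far from the other 3, and 2 were found, both of Myh6. Chance alone gives about 1 in 20 such sets. The highest MuRF1 -/- heart at 3 weeks on Myh6 probe 1 read 3.60, next to 3.42, and this was replicate 4, one of the arrays that stood apart. The lowest MuRF1 +/+ heart at 3 weeks on Myh6 probe 2 read 3.75, next to 4.12, and this was replicate 4 too. Groups of 3 hearts were not checked.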

How the results depend on the processing

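Of 370 recomputed counts and balance shifts, 333 stayed within the set limits and 37 did not, and no called value changed sign. The cause was not tested. Member probes called were 1 to 2 of 12 in MuRF1 -/- and 0 to 3 in MuRF1 +/+ mice for 3 weeks against chow, 0 and 0 to 5 for 8 weeks against chow, and 2 to 4 in each genotype for 8 against 3 weeks, with single hearts left out. For the genotype comparisons they were 0 to 1 at 3 weeks and 0 to 4 at 8 weeks, and 0 to 1 for the difference of the 8-week responses, the upper values at 8 weeks without MuRF1 +/+ 8-week replicate 1. For 3 weeks against chow in MuRF1 +/+ mice the series matrix and no filter each left 1. For 8 weeks against chow in MuRF1 +/+ mice Agilent's ratio, the series matrix, the heart channel alone and only the groups compared each left 0. For 8 against 3 weeks in MuRF1 -/- mice normexp on all spots and no filter gave 2 and the heart channel 7. For MuRF1 -/- against MuRF1 +/+ at 3 weeks the heart channel, the slide block, the replicate block and the fit without the 2 arrays that stood apart each gave 1, always an Nppa probe. Without those 2 arrays, 3 weeks against chow in MuRF1 -/- mice gave 4. The replicate block gave log2 0.84 ± 0.16 for Nppa probe 1 there (limma adjusted p = 0.0407). With it Myh7 probe 1 was also called lower at 3 weeks in MuRF1 -/- mice (log2 -1.06 ± 0.37, limma adjusted p = 0.0471). It pairs hearts that share only a number.

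The balance difference between genotypes at 8 weeks was -0.18 with the heart channel alone and -0.40 without the 2 arrays that stood apart, and -0.40 to 0.68 with single hearts left out. Correlated member pairs past the threshold numbered 0 with Agilent's ratio, 4 with the series matrix and 3 with the heart channel alone, against 1. Over all probes the count of calls ran, for example, from 85 to 1191 for 8 weeks against chow in MuRF1 -/- mice (against 394), 75 to 6657 in MuRF1 +/+ mice (2791), 3054 to 7404 and 3029 to 8448 for 3 weeks against chow (5467 and 5201), and 1 to 4388 between genotypes at 8 weeks (27). Between genotypes it was 5 to 20 on chow (13), 6 to 236 at 3 weeks (52) and 23 to 86 averaged (37). It was 0 to 8 and 0 to 2398 for the differences of the 3-week and 8-week responses (1 and 0), and 4574 to 8492 in MuRF1 -/- (6579) and 1297 to 5081 in MuRF1 +/+ mice (3395) for 8 against 3 weeks. Groups of 3 cannot reach p = 0.05 in the exact test.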
